A study of Mus musculus with 31 samples.

Results

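The ATP-binding cassette (ABC) transporter genes were described across 31 BXD recombinant inbred mouse strains. Every probe whose single gene name has the root Abc, a subfamily letter from a to g and a digit was taken, which gave 38 probes for 37 genes, of 23040 probes and 15096 named genes on the array. Abca and Abcb held 9 genes each, Abcc 7, Abcg 6, Abcd 3, Abcf 2 and Abce 1. Abca3 had 2 probes, which were averaged, and every other gene had 1. Other mouse genes of this naming were not analysed here.

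Each strain (BXD1 to BXD42, with gaps in the numbering) is an inbred line bred from C57BL/6J and DBA/2J mice and carries, at most loci, the allele of one or the other of these parents. Total RNA of 3 male mice aged 8 weeks was pooled per strain (the labels name no treatment), labelled with Alexa Fluor 647 and hybridised to 1 spotted glass array against a common C57BL/6J RNA, also male and aged 8 weeks, labelled with Alexa Fluor 555. No dye was swapped, and the C57BL/6J channel alone received spike-in RNA. The labels disagree on the tissue, with titles naming kidney and source fields naming whole brain, and log ratios carry no absolute level from which marker genes could settle it.

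ABC proteins use ATP to move substrates across membranes. Members of Abca and Abcg mainly move lipids and sterols. Abcb holds drug, bile salt, peptide and mitochondrial transporters. Abcc holds the multidrug resistance proteins, which export conjugated anions, together with the sulfonylurea receptors that regulate potassium channels. Abcd transporters bring fatty acids into peroxisomes, while Abce and Abcf proteins have no membrane-spanning part and act at the ribosome or in the cytosol. In kidney, several of these pumps stand in the apical membrane of the proximal tubule, and in brain they form part of the blood-brain barrier.

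Values are log2 ratios, most likely of strain over C57BL/6J: the sample titles name the strain first, and limma, the package the submitters name, takes the red channel over the green one by default. The log base and direction are not stated in the sources used here. If the ratio ran the other way every sign would turn, so that the folds given for Abcg2, Abcc9 and Abcg5 would be 0.665, 1.30 and 1.25, and Abca would be the subfamily with most genes below C57BL/6J. All 31 arrays hold the same sorted set of values, with a median of 0.0127 and an SD of 0.602, so differences in total signal between arrays had been removed. Correlations between arrays ran from -0.0926 to 0.808. BXD15 and BXD38 stood apart from the others in an earlier look at these data, and without them the counts given next were 11 higher and 7 lower. With 1 array per strain and 1 dye orientation, the mean ratio of a gene holds the effect of strain background, of the dye and of the C57BL/6J pool together, and spread between strains cannot be told apart from spread between arrays.

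Averaged over strains, 14 of the 37 ABC genes differed from C57BL/6J, 8 higher and 6 lower, in a limma test of the mean ratio against 0 with Benjamini-Hochberg adjustment over all named genes at 0.05. These shares are below the background: 26.5% of all named genes passed as higher, 29.3% as lower and 55.8% in either direction, against 37.8% of ABC genes. The median of the gene means was 0.03 for ABC genes and -0.01 for all named genes, and the median size of the mean was 0.115 for ABC genes and 0.171 for all. Only Abcg2 reached a mean of at least 0.5 in size, which 9.89% of all genes did, and with spot position removed, a correction described further on, Abcg1 alone did (-0.56), against 7.71% of all genes. Tested with limma's treat against a minimum size of 0.2, Abcg2 alone was higher (background 8.0%) and 0 ABC genes were lower (background 9.2%), or 1, Abcc9, at an unadjusted p under 0.05. The median SD over strains was 0.367 for ABC genes and 0.358 for all, and 19 of the 37 lay above the median of all genes. The family thus had ratios nearer 0 than the typical gene and a spread close to it, with single genes far out.

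**Figure D1:**
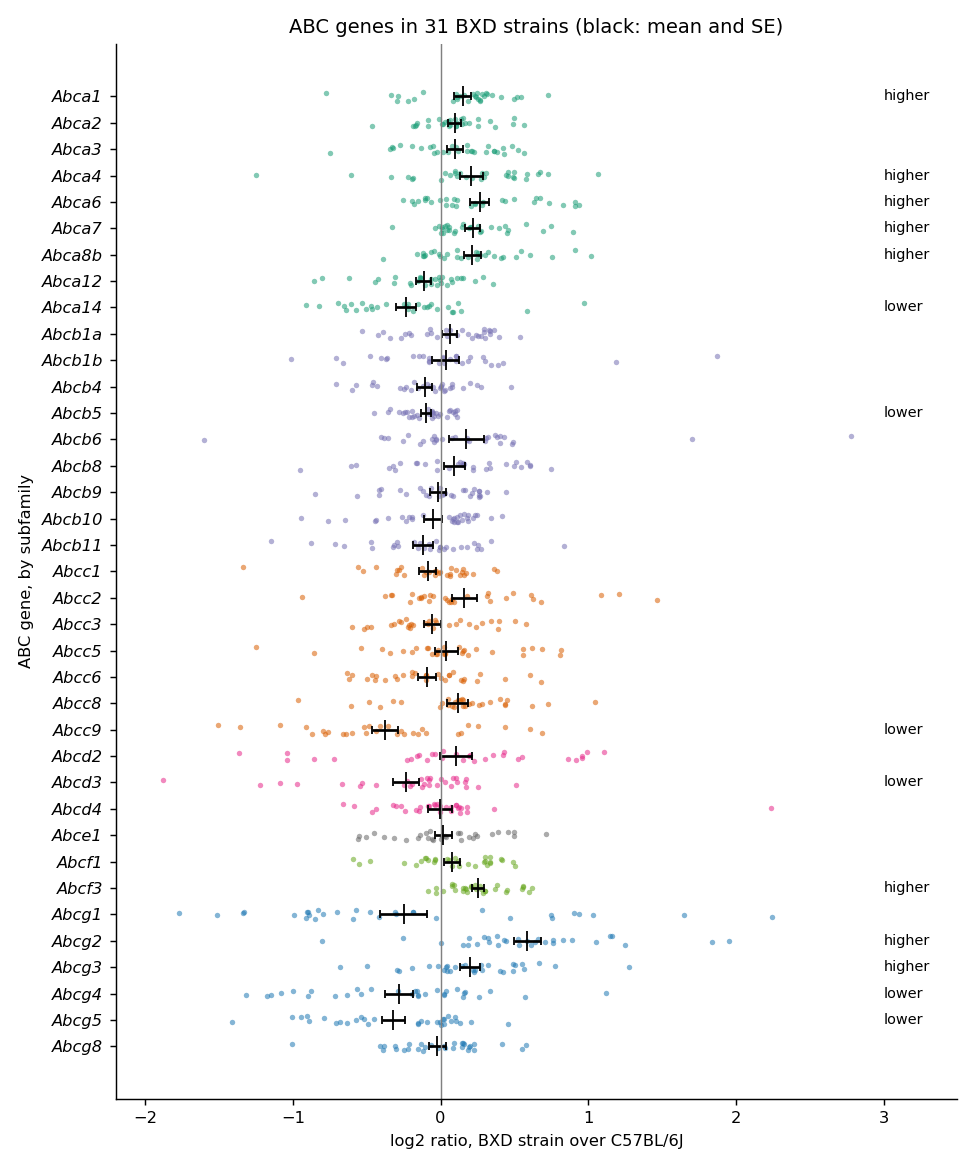
Log2 ratios of each of the 37 ABC genes (rows, coloured by subfamily) in 31 BXD strains over C57BL/6J (x axis). Each point is 1 strain, the black tick and bar are the mean and its SE, and the words at the right name the 14 genes past an adjusted p of 0.05. Abcg2 stands furthest to the right by its mean, Abcg1 has the widest scatter, and Abcb6 and Abcd4 have single strains far from the rest.

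The lipid transporters of Abca were the subfamily with most genes above C57BL/6J: 5 of 9 were higher, 1 was lower and 3 did not pass, with a median mean of 0.15. With spot position removed, Abca6 alone of the 5 passed. Abca6, one of a cluster of related genes on chromosome 11, ran from -0.26 in BXD11 through a median of 0.21 to 0.94 in BXD29. Its mean was 0.26 ± 0.0653 (SE, n = 31, limma adjusted p = 8.88e-04), above 0 in 22 of 31 strains. Abca7, a phospholipid exporter, was above 0 in 28 strains, from -0.33 in BXD5 through a median of 0.15 to 0.90 in BXD39, and averaged 0.22 ± 0.0496 (adjusted p = 3.53e-04). BXD5 was the only strain clearly below C57BL/6J for Abca7.

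Abca8b, from the same chromosome 11 cluster as Abca6, ranged from -0.39 in BXD34 through 0.19 to 1.02 in BXD23 and averaged 0.21 ± 0.0587 (limma adjusted p = 0.00234). Abca1, which loads cholesterol onto apolipoprotein A-I, was lowest in BXD5 at -0.77 and highest in BXD23 at 0.73, with a median of 0.23. Its mean of 0.15 ± 0.0559 passed (adjusted p = 0.0229), with 24 of 31 strains above 0. Abca4, a retinoid flippase of photoreceptors, was also higher (mean 0.21), and it was above 0 in 25 strains.

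Abca14 was the only gene of Abca that was lower. Its ratio ran from -0.91 in BXD15 through -0.22 to 0.97 in BXD21, with a mean of -0.23 ± 0.0701 (limma adjusted p = 0.00506) and 24 of 31 strains below 0. Abca2 (mean 0.10), which handles lysosomal lipids in brain, and Abca12 (mean -0.11), which loads lipid into skin granules, did not pass. The mean of Abca3, the surfactant lipid transporter, was 0.10 and did not pass, but its probes disagreed: one averaged -0.35 ± 0.0747 (limma adjusted p = 2.06e-04) and the other 0.54 ± 0.0822 (adjusted p = 1.39e-06), and over strains they had r = -0.0855. The averaged value of Abca3 therefore describes neither probe.

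In Abcb, 1 of 9 genes passed: Abcb5 was lower, with a small mean of -0.10 and the narrowest spread of all 37 genes (SD 0.152), but with spot position removed its mean was -0.0018 and did not pass (limma adjusted p = 0.970). The P-glycoprotein genes Abcb1a and Abcb1b, multidrug pumps of the blood-brain barrier and the proximal tubule, did not pass. Abcb1a ran from -0.53 in BXD16 through 0.11 to 0.54 in BXD11, with a mean of 0.06 ± 0.0519 (limma adjusted p = 0.319). Abcb1b ran from -1.01 in BXD8 through 0.02 to 1.87 in BXD19, with a mean of 0.03 ± 0.0909 (adjusted p = 0.767). BXD19 and BXD11, at 1.19, stood above all other strains for Abcb1b. These are close paralogs, and whether each probe also binds the transcript of the other gene was not tested, so both values are uncertain.

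Abcb4, which flops phosphatidylcholine into bile, lay between -0.71 in BXD2 and 0.48 in BXD16, around a median of -0.05. Its mean was -0.11 ± 0.0507 (limma adjusted p = 0.0757). Abcb11, the bile salt export pump, reached from -1.15 in BXD31 through -0.07 to 0.84 in BXD8, with a mean of -0.12 ± 0.0693 (adjusted p = 0.144). In both genes strains lay on either side of C57BL/6J, with 18 below 0 for Abcb4 and 20 for Abcb11. With spot position removed Abcb11 passed as lower (-0.25, limma adjusted p = 0.00223) and Abcb4 did not pass (-0.04, adjusted p = 0.512).

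Abcb6, a porphyrin transporter, was the most scattered of Abcb (SD 0.695, larger than in 93.1% of all genes). It ran from -1.60 in BXD34 through 0.10 to 2.78 in BXD16, and its mean of 0.17 ± 0.118 did not pass (limma adjusted p = 0.209). BXD16, BXD40 at 1.70 and BXD34 stood alone, while the other strains fell between -0.41 and 0.49. The mitochondrial transporters Abcb8 (mean 0.09) and Abcb10 (mean -0.05) and the lysosomal peptide transporter Abcb9 (mean -0.01) did not pass.

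In Abcc, 1 of 7 genes passed, Abcc9, which was lower. With spot position removed 5 of 7 passed, Abcc9, Abcc1 and Abcc6 as lower and Abcc8 and Abcc3 as higher. Abcc9 encodes a sulfonylurea receptor, the regulatory subunit of potassium channels of vessel and heart muscle. It ran from -1.51 in BXD40 through -0.41 to 0.68 in BXD12, and its mean of -0.37 ± 0.0903 (SE, n = 31, limma adjusted p = 6.89e-04, 0.771-fold) was the lowest of all 37 ABC genes. With spot position removed it was -0.21 (adjusted p = 0.0102), and Abcg1, Abcd3, Abcg4, Abcg5, Abcb11, Abcc1 and Abcc6 had lower means. In 24 of 31 strains it was below C57BL/6J, and BXD12 and BXD23 were the highest. Abcc8, the sulfonylurea receptor of pancreatic beta cells and neurons, ran from -0.96 in BXD20 through 0.15 to 1.05 in BXD15, with a mean of 0.12 ± 0.0698 (adjusted p = 0.160). Although 24 of 31 strains were above 0, the mean of Abcc8 did not pass, and it passed when BXD20 was left out (0.15, adjusted p = 0.0417).

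The genome around the start of Abcc9 is shown because its mean was the lowest of the family as deposited. The stretch is the 120 bases before the annotated start at chr6:142702275-142702394, minus strand, written 5′ to 3′ from RefSeq (GRCm38.p6), with capitals for the GC box searched (GGGCGG, found here on the other strand as CCGCCC).
Abcc9: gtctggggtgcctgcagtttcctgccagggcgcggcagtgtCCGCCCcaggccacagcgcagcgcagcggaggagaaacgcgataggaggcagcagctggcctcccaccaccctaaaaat
Its GC content was 66.7%, against a median of 54.2% over 32851 promoter windows of that length, 26.5% of which hold the GC box on either strand.

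The 5 other members of Abcc are export pumps, and none passed as deposited. With spot position removed, Abcc1 (-0.24, limma adjusted p = 7.08e-04) and Abcc6 (-0.22, adjusted p = 2.84e-04) were lower and Abcc3 (0.15, adjusted p = 0.0162) was higher, with its sign turned. Abcc1, which exports glutathione conjugates, ran from -1.34 in BXD5 through -0.03 to 0.39 in BXD15, with a mean of -0.09 ± 0.0593 (limma adjusted p = 0.212). BXD5 was far below the next strain, BXD6 at -0.56. Abcc2, the apical pump for organic anion conjugates in liver and proximal tubule, ran from -0.94 in BXD5 through 0.05 to 1.46 in BXD19, with a mean of 0.16 ± 0.0858 (adjusted p = 0.108). BXD19, BXD40 at 1.21 and BXD16 at 1.09 stood above the others, and without BXD5 the mean passed (0.20, adjusted p = 0.0377).

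Abcc3, the basolateral exporter of glucuronides, stayed between -0.60 in BXD21 and 0.58 in BXD38, with a median of -0.08 and a mean of -0.06 ± 0.0565 (limma adjusted p = 0.418). Abcc5, an exporter of cyclic nucleotides, ran from -1.25 in BXD5 through 0.03 to 0.81 in BXD38, with a mean of 0.04 ± 0.0782 (adjusted p = 0.692). Abcc6, a liver and kidney transporter whose loss leads to ectopic mineralisation and of which DBA/2J carries a known defective allele, ran from -0.64 in BXD27 through -0.10 to 0.68 in BXD23. Its mean was -0.09 ± 0.0612 (adjusted p = 0.198). BXD5 was the lowest strain for Abcc1, Abcc2 and Abcc5.

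Compared as a subfamily, Abcc lay slightly below the rest of the family. The median of the gene means was -0.06 for the 7 Abcc genes and 0.05 for the 30 other ABC genes, a difference of -0.10, and with spot position removed (described further on) it was -0.08. The median SD was 0.396 for Abcc and 0.349 for the other ABC genes, and this difference of 0.0471 was -0.0032 with spot position removed and -0.0078 without BXD15 and BXD38. Abcg had a lower median of the gene means than Abcc, at -0.14, and the other subfamilies had higher ones. Abcd and Abcg each had a larger median SD, 0.497, and the other subfamilies had smaller ones. Genes are not replicates, so these differences carry no test.

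Strain by strain, the median of Abcc minus the median of the other ABC genes ran from -0.55 in BXD5 through -0.06 to 0.38 in BXD22, below 0 in 19 strains and above 0 in 12. It was below 0 in all 10 strains from BXD1 to BXD14, where it averaged -0.26, and above 0 in 12 of the 21 strains from BXD15 to BXD42, where it averaged 0.01. In BXD1 to BXD14 all 7 Abcc genes had means below 0, with a median of -0.20. The medians of Abcd (-0.21) and Abcg (-0.24) were also below 0 there, and those of the other subfamilies were above 0. In BXD15 to BXD42, 4 of the 7 Abcc genes were above 0 and their median was 0.01. These ranges were chosen because earlier results of these data placed the arrays of BXD1 to BXD14 together. The labels name no batch for them, the difference between the ranges was not tested, and strain set and any array batch cannot be told apart.

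**Figure D2:**
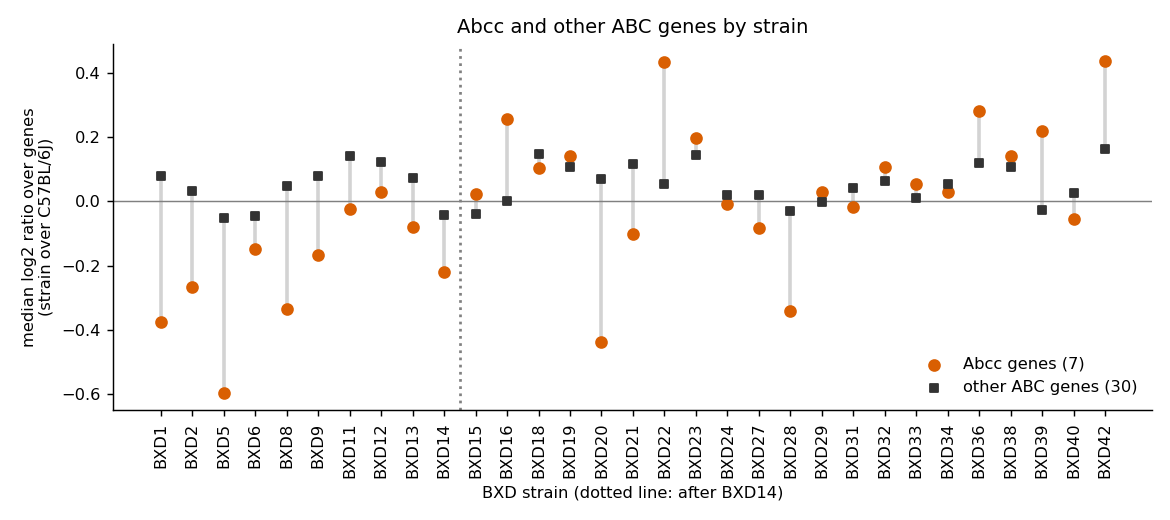
Median log2 ratio over the 7 Abcc genes (circles) and over the 30 other ABC genes (squares) in each BXD strain, over C57BL/6J. Grey lines join the medians of a strain. Left of the dotted line, in BXD1 to BXD14, every circle lies below its square, down to a difference of -0.55 in BXD5, and to its right circles lie on both sides.

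The same ranges differed in which ABC genes passed. In BXD1 to BXD14, 4 ABC genes were higher and 8 lower, with backgrounds of 21.6% and 20.1% of all genes. In BXD15 to BXD42, 10 were higher and 4 lower, with backgrounds of 22.8% and 25.1%. Abcd2, a peroxisomal transporter of very long chain fatty acids, had the clearest contrast in sign, with a mean of 0.37 in BXD15 to BXD42 (limma adjusted p = 0.00536) and -0.45 in BXD1 to BXD14 (adjusted p = 0.0255). Over all strains it ran from -1.37 in BXD12 through 0.15 to 1.11 in BXD29 (SD 0.634), and its mean of 0.11 ± 0.108 did not pass (adjusted p = 0.408). Abcb8 averaged 0.42 in BXD1 to BXD14, where it passed (adjusted p = 7.33e-04), and -0.06 in BXD15 to BXD42, where it did not (adjusted p = 0.561). These contrasts between ranges were picked after the values were seen.

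Of the other genes of Abcd, Abcd3, which carries branched and long chain fatty acids into peroxisomes, was lower. It ran from -1.88 in BXD23 through -0.09 to 0.51 in BXD21, with a mean of -0.23 ± 0.0858 (limma adjusted p = 0.0206). BXD23, BXD9, BXD32 and BXD24 formed a tail of low strains. Abcd4, a lysosomal cobalamin transporter, averaged -0.00, and BXD27 alone reached 2.24, against 0.36 in the next strain. Among the genes without a membrane part, Abcf3 was higher in 28 of 31 strains with the smallest spread of any gene that was higher. It ran from -0.08 in BXD16 through 0.24 to 0.62 in BXD36 and averaged 0.26 ± 0.0395 (adjusted p = 1.86e-06), or 0.10 with spot position removed (adjusted p = 0.0684). Abcf1 (mean 0.08), a translation factor, and Abce1 (mean 0.02), which recycles ribosomes, did not pass.

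Abcg held the highest mean and the largest SD of the family: 2 of 6 genes were higher, 2 were lower and 2 did not pass, and 5 of the 6 had an SD above the median of all genes. Abcg2, a multidrug and urate exporter of the proximal tubule and the blood-brain barrier, was the ABC gene furthest above C57BL/6J as deposited. It ran from -0.81 in BXD13 through 0.53 to 1.95 in BXD23. Its mean was 0.59 ± 0.0937 (SE, n = 31, limma adjusted p = 2.84e-06), which is 1.5-fold, and 29 of 31 strains were above 0. With spot position removed its mean was 0.28 (adjusted p = 2.62e-05), just below that of Abcg3 at 0.29. BXD23 and BXD38, at 1.84, were the highest, and BXD13 and BXD21 were the strains below 0.

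Abcg1, which moves cholesterol to high-density lipoprotein, had the largest SD of the family, 0.951, above that of 98.8% of all genes. It ran from -1.77 in BXD28 through -0.48 to 2.25 in BXD38, and its mean of -0.25 ± 0.160 did not pass (limma adjusted p = 0.183). Leaving out BXD38 brought the mean to -0.33 and past the threshold (adjusted p = 0.0481), and with spot position removed it was -0.56 (adjusted p = 8.84e-06), the lowest of the family. All 10 strains from BXD1 to BXD14 were below 0 (mean -0.77, adjusted p = 2.52e-04), while those from BXD15 to BXD42 spread on both sides.

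Abcg4, a sterol transporter of neurons and glia, was lower, from -1.32 in BXD9 through -0.16 to 1.12 in BXD33, with a mean of -0.28 ± 0.0968 (limma adjusted p = 0.0138) and an SD of 0.565. Abcg3, a rodent gene of blood cells, was higher (mean 0.20). Abcg5 and Abcg8 encode the subunits of the sterol exporter that limits plant sterol uptake in gut and sends cholesterol into bile. Abcg5 was lower, from -1.42 in BXD20 through -0.15 to 0.45 in BXD36, with a mean of -0.32 ± 0.0781 (adjusted p = 7.91e-04, 0.801-fold). Abcg8 ran from -1.01 in BXD8 through 0.02 to 0.58 in BXD11, with a mean of -0.02 ± 0.0575 (adjusted p = 0.767). Its strains were split evenly about 0, 16 above and 15 below, whereas 20 of 31 were below 0 for Abcg5.

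**Figure D3:**
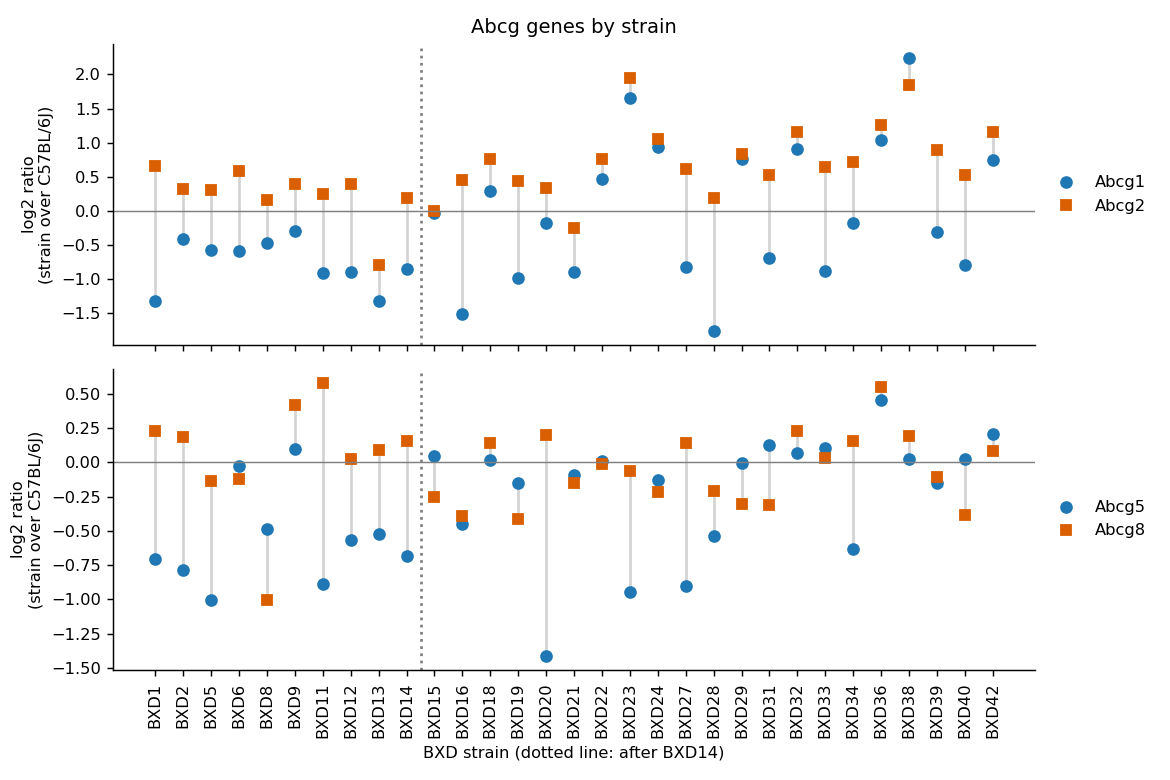
Log2 ratios over C57BL/6J of Abcg1 and Abcg2 (top) and of Abcg5 and Abcg8 (bottom) in each BXD strain, with the dotted line after BXD14. Both genes of the top panel peak in BXD23 and BXD38. In the bottom panel Abcg5 falls to -1.42 in BXD20, where Abcg8 is at 0.20.

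Abcg5 and Abcg8 lie head to head on chromosome 17, and the bases between their annotated starts are shown because both genes are transcribed outward from them. The interval is 109 bases at chr17:84683012-84683120, plus strand, from RefSeq (GRCm38.p6), with capitals for the TATA box searched (TATAAA, found on the other strand as TTTATA). Abcg2 is shown beside it because its mean was the highest as deposited, as the 120 bases before its first annotated start at chr6:58584413-58584532, plus strand.
Abcg5 and Abcg8: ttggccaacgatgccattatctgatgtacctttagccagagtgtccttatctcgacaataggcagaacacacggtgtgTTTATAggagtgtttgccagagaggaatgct
Abcg2: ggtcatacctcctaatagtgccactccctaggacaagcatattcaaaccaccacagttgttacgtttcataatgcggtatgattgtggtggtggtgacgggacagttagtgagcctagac
The shared interval has a GC content of 45.9%, and 5.90% of promoter windows of its length hold the TATA box on either strand. The Abcg2 stretch (GC 47.5%) holds neither this letter string nor the GC box. Abcg2 and Abcg8 have other annotated starts, and the matches are descriptions of letters only.

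Over strains, no covariation of Abcg5 and Abcg8 was detected: Pearson r was -0.0798 and Spearman rho -0.104 (permutation p = 0.669 and 0.579, n = 31), and r was -0.0468 without BXD5 and BXD20. They were one of 14 pairs computed, 8 chosen for a shared role or place and 6 because the genes are chromosomal neighbours, the second set chosen after seeing which genes were measured. Only Abcc1 and Abcc5, both export pumps on chromosome 16, passed. Their Pearson r was 0.60 (permutation p = 0.00075, adjusted over 14 pairs 0.0105) and their Spearman rho 0.479 (p = 0.00676, adjusted 0.0946), so the rank measure did not pass. In limma's regression of every named gene on Abcc1, Abcc5 was 1 of 79 genes past the threshold (adjusted p = 0.0484, background 0.523%). BXD5 was the lowest strain for both, and r was 0.427 without BXD5 and BXD6, 0.631 in BXD1 to BXD14, 0.446 in BXD15 to BXD42 and 0.461 with spot position removed. Their probes are 3 places apart in the same repeat of the probe numbering, which is described further on.

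The other pairs did not pass. The cholesterol exporters Abca1 and Abcg1 had r = 0.312 and rho = 0.263 (permutation p = 0.0855 and 0.154, adjusted 0.203 and 0.359). The sulfonylurea receptors Abcc8 and Abcc9 had r = 0.0223 and rho = 0.134 (p = 0.906 and 0.473). Abcb1a and Abcb1b had r = 0.0612 and rho = -0.0363 (p = 0.747 and 0.847), with 0.813 in BXD1 to BXD14 and -0.0881 in BXD15 to BXD42. The neighbours Abcc6 and Abcc8 on chromosome 7 had r = 0.313 and rho = 0.310 (p = 0.0870 and 0.0928, adjusted 0.203 and 0.285). Abcg2 and Slc22a12, which export and reabsorb urate in the proximal tubule, had r = -0.332 and rho = -0.367 (p = 0.0686 and 0.0437, adjusted 0.203 and 0.241). Among the remaining 7 pairs, which include Abcc5 with Abcf3 and Abca6 with Abca8b, r lay between -0.301 and 0.443.

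Among all 666 pairs of ABC genes the median size of r was 0.206, against 0.183 over all gene pairs, and 8.71% exceeded 0.5 in size, against 5.23%. With the first principal component of the arrays removed, which held 20.6% of the variance, the medians were 0.160 and 0.159 and the shares 2.25% and 2.70%. Of the ABC genes, 37.8% had a correlation over 0.5 in size with that component, against 28.4% of all genes. The pairs within Abcc had a median r of 0.295 (21 pairs), those within Abca 0.203 (36 pairs) and those within Abcg 0.187 (15 pairs). Within Abcd it was 0.0565 (3 pairs) and within Abcb 0.0055 (36 pairs). These medians by subfamily were not computed with the first principal component removed.

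The 5 pairs with the largest correlation are given as a description, since they were picked by it. Abcg1 and Abcg2 led with r = 0.795 and rho = 0.663, and r was 0.670 without BXD23 and BXD38. Abca1 and Abcd2 had r = 0.778 and rho = 0.750, Abcc8 and Abcg5 had r = 0.741 and rho = 0.697, Abca12 and Abcg5 had r = 0.718 and rho = 0.708, and Abcc6 and Abcd2 had r = 0.683 and rho = 0.718. No pair of this group joins genes of a known common complex.

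The place of a spot, taken from the order of the probe numbers, moved with these values. Probes were divided by that order into 48 repeats of 480 places. No layout map was used, so places apart are steps in the numbering and not measured distances. Place accounted for 36.7% of the variance in mean ratio over all probes. Whether place also follows the order of the probe library was not tested. Of the 38 ABC probes, 23 (60.5%) lay at places 50 to 70 of the repeat, a window set after their places were seen that holds 4.38% of all places. The median mean ratio of those places was 0.145, against -0.0005 for all places. Taking the median of each place off every array shifted the mean of 25 ABC genes down and of 11 up, by a median of -0.0787, and brought the median of the ABC means to -0.04, against -0.02 for all genes.

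With place removed, 7 ABC genes were higher and 10 lower, with backgrounds of 24.8% and 29.3%. Abcg2 (mean 0.28), Abca6 and Abcg3 were higher both ways, and Abcc9 (-0.21), Abcg5, Abcg4, Abcd3 and Abca14 were lower both ways. Abca1, Abca4, Abca7, Abca8b, Abcf3 and Abcb5 no longer passed. Abcc8, Abcc3, Abcb1b and Abcg8 passed as higher, and Abcg1 (-0.56, limma adjusted p = 8.84e-06), Abcc1, Abcc6, Abcb11 and Abca12 as lower. Of Abca, the subfamily with most genes higher, 1 of 9 then remained so.

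**Figure D4:**
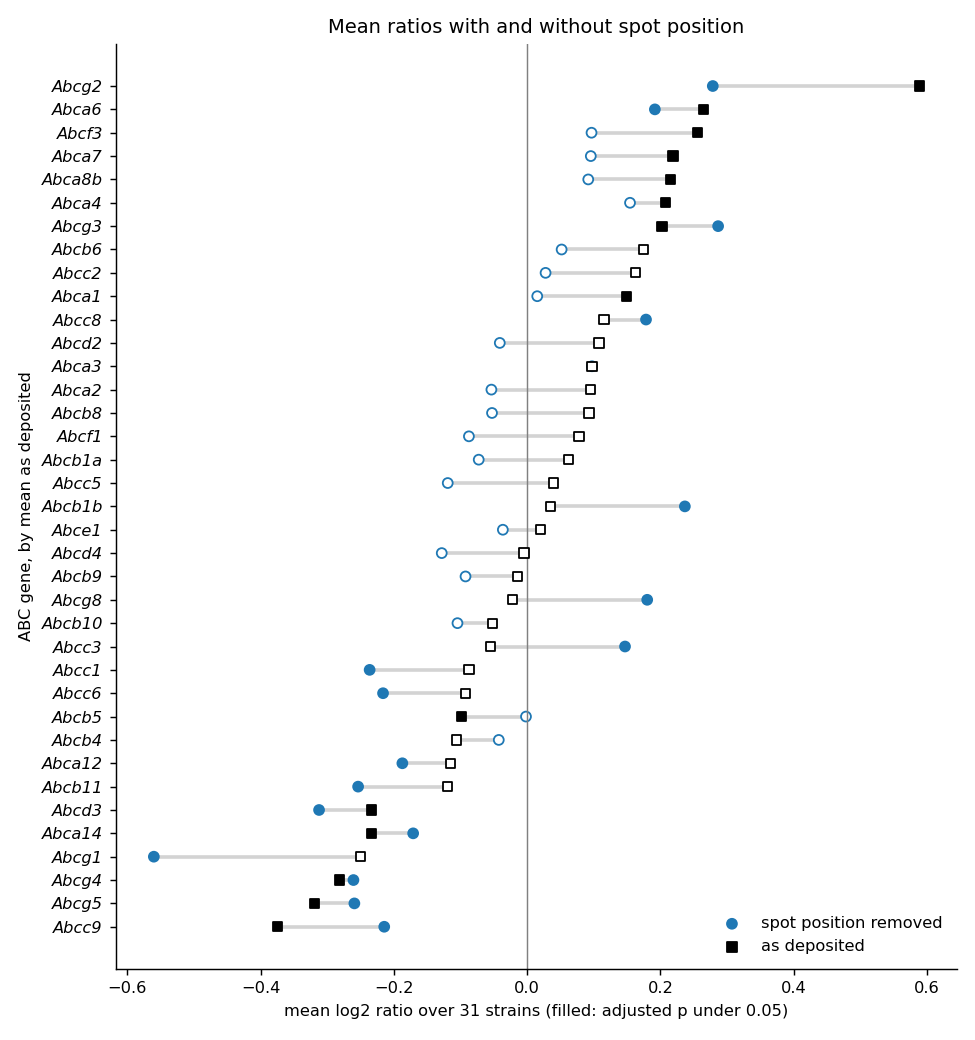
Mean log2 ratio over 31 BXD strains (x axis) of each ABC gene with spot position removed (circles) and as deposited (squares); filled symbols passed an adjusted p of 0.05. Grey lines join the values of a gene, and the symbols of Abca3 coincide. Abcg2 moves to 0.28 and Abcg1 to -0.56, and most genes above 0 move towards it.

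Place also moved with the leading pair. Abcg1 and Abcg2 sit at the same place, 64, of different repeats, and with place removed their r was 0.0438, against 0.795 as deposited. Abca1 and Abcd2, 2 places apart, had 0.741 with place removed, Abcc8 and Abcg5, 5 places apart, had 0.698, Abca12 and Abcg5, 12 apart, had 0.635, and Abcc6 and Abcd2, 2 apart, had 0.435. Abcc5 and Abcf3, neighbours on chromosome 16 that also share a place, had 0.0287 with it removed, against 0.443 as deposited. Over all ABC probe pairs up to 10 places apart the median r was 0.0234 with place removed and 0.0889 as deposited, and over pairs further apart 0.0108 and 0.0471. Abcc1 and Abcc5, 3 places apart in 1 repeat, had 0.461 with place removed, against 0.60 as deposited. Over the 14 ABC probe pairs up to 10 places apart in 1 repeat the median r was 0.194 with place removed and 0.219 as deposited. Place was removed as a median over repeats, so a shift within 1 repeat would remain. The part of place in each gene's own ratio was not tested beyond this subtraction.

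**Figure D5:**
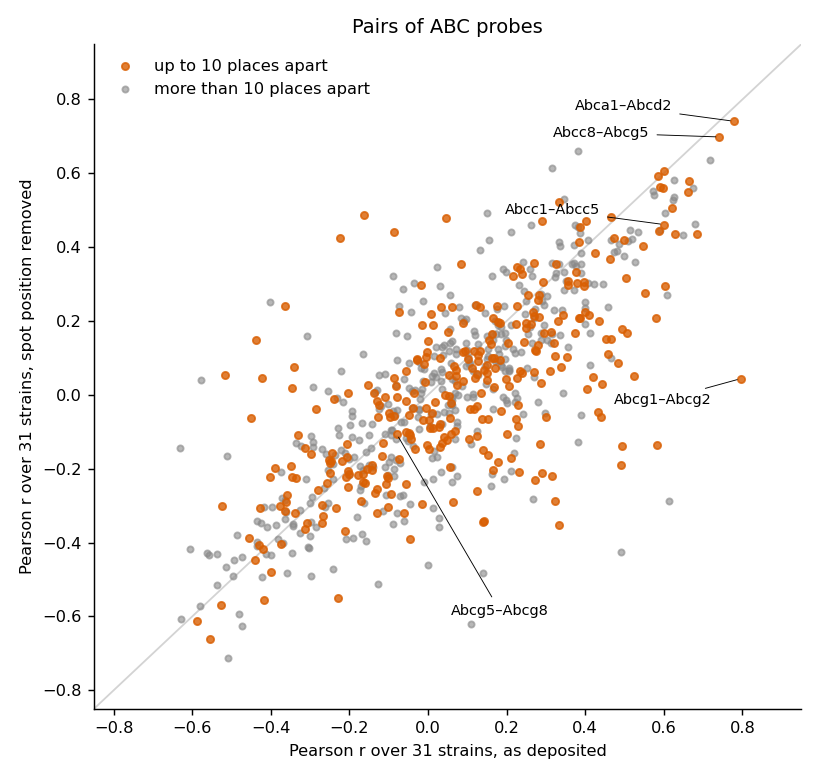
Pearson r over 31 strains of each pair of ABC probes as deposited (x axis) and with spot position removed (y axis), for pairs up to 10 places apart in the array's repeat (large points) and further apart (small grey points). Pairs on the diagonal are unchanged. Abcg1 and Abcg2 lie far below it, at 0.795 and 0.0438, while Abca1 and Abcd2 stay near it.

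Single strains also set the ends of many ABC genes. BXD5 was the lowest strain for 5 of the 37 genes (Abca1, Abca7, Abcc1, Abcc2 and Abcc5), against 2.92% of all named genes. The probes of these 5 genes all lie at places 57 to 62 of the array's repeat. With place removed, a check added after the values were seen, BXD5 was still the lowest strain for the same 5 genes, against 3.35% of all. The probes of Abca1, Abcc1 and Abcc5 lie 2 to 5 places apart in 1 repeat. Place was removed as a median over the 48 repeats, so the check could not take off a shift within 1 repeat. BXD23 was the highest strain for 4, against 2.73% of all genes. With place removed it was highest for 3 (Abca1, Abca8b and Abcc6, no longer Abcg2), against 2.6% of all. BXD15 was lowest for 3 and highest for 3, against 9.60% and 7.29% of all genes. With place removed it was lowest for 2 and highest for 3, against 9.51% and 7.79% of all. The median ratio over ABC genes ran from -0.14 in BXD5 to 0.20 in BXD42, against -0.02 in BXD15 to 0.04 in BXD11 for all genes.

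Since each strain carries one of 2 parental alleles at a locus, the values of a gene were also divided at the cut that removed most of their sum of squares, leaving 5 strains or more in each set. No genotypes were used, and the cuts are descriptions. For Abcg5 the cut removed 79.4%, more than in 98.0% of all genes, with 14 strains at or below -0.45 and 17 at or above -0.15 and none between. For Abca6 it removed 77.8%, with 20 strains at or below 0.29 and 11 at or above 0.41. For Abcb1a it removed 75.1%, with 12 strains at or below -0.03 and 19 at or above 0.04. For Abcc6, near the middle of all genes by this measure (percentile 57.1), the cut left 17 strains at or below -0.10 and 14 at or above -0.02. The r with the first principal component of the arrays was -0.658 for Abcg5, -0.832 for Abca6, 0.672 for Abcb1a and -0.691 for Abcc6. Every strain from BXD1 to BXD14 was in the high set of Abcb1a. In the low set were all of them but BXD8 for Abca6, and all but BXD6 and BXD9 for Abcg5. For Abcc6 all but BXD8, BXD9 and BXD13 were in the low set. Whether the cuts follow parental alleles or these array-wide differences was not tested.

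Genes that act with ABC transporters were counted from lists drawn up with earlier results of these data known. Of all named genes, 26.5% passed as higher, 29.3% as lower and 55.8% in either direction. Of 14 measured regulators of ABC genes, 3 were higher (Ppara at 0.44, Keap1 and Ahr), 2 were lower (the bile acid receptor Nr1h4 and the xenobiotic receptor Nr1i3) and 9 did not pass. Of 12 organic ion carriers of the proximal tubule, 3 were higher (Slc22a2 at 0.55, Slc22a8 and Slc22a18), 1 was lower (Slc17a1 at -0.38) and 8 did not pass. Of 8 sterol and lipoprotein partners, 3 were higher (Lcat, Pltp and Apoa1) and 1 lower (Apoe). The potassium channel pores Kcnj8 and Kcnj11, partners of Abcc9 and Abcc8, did not pass (means 0.11 and 0.02). With spot position removed, Lcat (0.04), Apoa1 (0.10), Slc22a18 (0.14) and Nr1h4 (-0.10) no longer passed. Srebf1 (0.20) and Kcnj11 (0.18) then passed as higher, and Slc22a2 was at 0.245.

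Of 11 peroxisome biogenesis genes 6 were higher and none was lower, while Abcd3 was lower. Of 11 iron-sulfur and heme genes of mitochondria 6 were higher (Nfs1 at 0.63) and 1 was lower (Isca2), while Abcb6, Abcb8 and Abcb10 did not pass. Of the ABC proteins with other symbols, the chloride channel Cftr was higher (mean 0.16) and the peptide transporters Tap1 and Tap2 did not pass. These counts are to be read against the 26.5% of all genes that passed as higher, 29.3% as lower and 55.8% in either direction. With spot position removed, Cftr (0.01), Pex5, Pex6 and Slc25a37 no longer passed, and Tap1 (-0.18) passed as lower.

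Cell type markers were set beside the 4 ABC genes Abcg2, Abcg1, Abcc9 and Abcg5, chosen after their values were seen, with 10 marker lists and so 40 relations. Abcg5 ran against the proximal tubule list, all 7 genes of which were measured and whose strain mean spanned -0.59 to 1.08. Pearson r was -0.644 and Spearman rho -0.609 (permutation p = 9e-05 and 0.00044, adjusted 0.0036 and 0.0088), with -0.536 without BXD2 and BXD20, -0.565 in BXD1 to BXD14 and -0.580 in BXD15 to BXD42. The list mean is not scaled by gene, so Slc5a2 (SD 1.14) and Slc22a12 (SD 0.835) weigh most in it. Over all strains Abcg5 had r = -0.658 with the first principal component of the arrays. In pooled tissue RNA, fewer cells of a type and less RNA per cell cannot be told apart. Abcg2 ran with the adrenal list, 3 of 4 genes measured and spanning -0.33 to 0.80, with r = 0.578 and rho = 0.635 (permutation p = 0.00062 and 0.00013, adjusted 0.0124 and 0.0052). That r was 0.443 without BXD23 and BXD32, 0.213 in BXD1 to BXD14 and 0.595 in BXD15 to BXD42. The adrenal list mean is not scaled by gene either. Star (SD 0.705) weighs most in it, against 0.510 for Cyp11a1 and 0.330 for Th. With spot position removed the mean of Star was 0.04, against 0.35 as deposited. Th was at 0.10 against 0.17, Cyp11a1 at -0.09 against -0.04, and Abcg2 at 0.28 against 0.59. Star and Abcg2 thus moved down by a like amount, and whether their probes share a place was not tested. None of the 40 relations was computed with spot position or the first principal component removed. The part of these cells in either ABC gene was not tested.

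Of the other 38 relations none passed by both measures, and 4 passed by one of them, with adjusted permutation p from 0.0227 to 0.0432: Abcg1 with the adrenal list, Abcg1 with endothelium, Abcg5 with endothelium and Abcg5 with the loop of Henle. The median SD of the marker lists over strains ran from 0.249 for podocyte through 0.261 for glia, 0.288 for neuron, 0.338 for collecting duct, 0.382 for endothelium, 0.409 for the loop of Henle, 0.424 for macrophage, 0.472 for proximal tubule and 0.510 for adrenal to 0.925 for hepatocyte, against 0.358 for all genes. Kidney lists lay on both sides of that value.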

How the data were processed

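Spotted 2-colour arrays of 31 BXD strains were analysed, 1 array per strain. The deposited table holds log2 ratios (unit inferred from the values; log base and direction are not given in the sources used here). Per the submitters' processing notes, R 2.0.0 and limma were used. All arrays share one set of sorted values, so the authors' table had been normalised between arrays; background correction, spot filters and signal above background are not given in the sources used here, and precision is limited by the number of arrays.

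Probes were named from the platform annotation: 16874 had 1 gene name, 134 had several and 6032 had none. Of the named probes, 16196 matched a RefSeq gene, as did all 38 ABC probes. Probes of a gene were averaged. Mean ratios were tested against 0 with limma 3.58.1 (lmFit and eBayes, 2-sided) in R 4.3.3, adjusted over 15096 genes at 0.05. Correlations have p-values from 100000 permutations. The fits were tested on simulated data with noise drawn independently for each gene and strain. That noise held no place effect and no shared component of the arrays, so the check does not cover them. Alternatives were probe choice, centring, spot position, spread filter, array weights, robust eBayes, a minimum size of 0.2, the first principal component, and strains left out.

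Genes named in full were all Abcc genes, the 5 highest and 5 lowest means, the 5 largest SDs and a fixed list of known transporters; every other ABC gene is given by its mean. ABC genes and all lists were chosen with earlier results of these data known. The labels do not say whether the 3 pooled mice were housed or extracted apart. Promoter letters are from RefSeq (GRCm38.p6), where 27 of 37 ABC genes matched.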

Additional observations from a re-analysis of the deposited data

How the results depend on the processing

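All 14 ABC genes that passed did so in each of 31 refits leaving out 1 strain, in which 8 to 10 were higher and 6 or 7 lower; of those that did not pass, Abca2 passed in 6 refits, Abca12 in 4, Abcb4 in 2, and Abca3, Abcb11, Abcc2, Abcc8 and Abcg1 in 1 each. The counts as deposited were 8 higher and 6 lower. They were 1 and 0 against a minimum size of 0.2, 4 and 8 in BXD1 to BXD14 alone and 7 and 10 with spot position removed, and 12 and 8 with array weights, 11 and 7 without BXD15 and BXD38, and 8 and 8 with arrays centred on their median. The mean of Abca1, 0.15 over all strains, was -0.0627 in BXD1 to BXD14 alone (limma adjusted p = 0.650). The cause of these changes was not tested, and some settings differ by design in having fewer strains or a stricter threshold. The Abcc minus other ABC difference of means lay between -0.13 and -0.09 with 1 strain left out and between -0.23 and -0.01 under the other settings. The difference of median SDs lay between -0.0016 and 0.0680 with 1 strain left out. Signal over background was not analysed here, so dim probes could not be set apart. No paired analysis was possible because there is 1 group of arrays, with 1 array per strain.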
